A study of Mus musculus with 39 samples.

Results

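Liver RNA was compared between 5 mice exposed to an aggressor for 5 days and 4 control mice, all killed after a rest of 1.5 wks. The 9 arrays were taken from the 39 of the series because the description and the source name of each gave the 5-day regimen and the 1.5 wk rest. The titles of the 5 exposed mice and of 1 control carry a 10 in place of a 5, and the description and source name were followed. The title of that control, Ctrl mouse 4, also has a letter prefix that no other of the 39 titles carries. All mice were male C57BL6/J, 5 to 6 weeks old at the start of single housing. Exposed mice (AggE) spent 6 hrs a day in a mesh cage inside the home cage of a trained SJL aggressor and were put in direct contact with it up to 3 times a session. Controls (Ctrl) had the same caging, handling and food deprivation with no aggressor, so the control condition also included isolation and fasting. Mice of both groups were put behind a partition in an aggressor's home cage 1 hr before they were killed. Liver RNA labelled with Cy-5 was hybridised against a mouse reference RNA labelled with Cy-3, and each value below is a log2 ratio of liver over reference, which can be compared between mice for a gene but not between genes.

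The hepatocyte, the main cell of the liver, makes most plasma proteins, breaks down amino acids and disposes of their nitrogen as urea, makes bile acids from cholesterol and oxidises fatty acids under the control of the nuclear receptor PPARα. In an inflammatory response it releases acute phase proteins such as serum amyloid A, and metallothioneins, which bind zinc, are induced with them. Glucocorticoids, fasting and growth hormone each act on parts of this program.

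The tissue label held. Of 19 hepatocyte markers measured, 16 were well above background on all 9 arrays, albumin (Alb) among them at log2 ratios of 5.70 to 7.71. Because this is bulk tissue, fewer cells of a type and less RNA per cell cannot be told apart. Between 20.2% and 58.1% of probes were well above background, with the highest shares in AggE mouse 2 (58.1%) and Ctrl mouse 4 (51.1%), which were scanned on a separate day from the others. The mean share was 33.4% in AggE and 33.8% in Ctrl (exact permutation test over the mice, two-sided, p = 0.96). The 9 arrays lay on 4 slides, and only 1 slide held both groups, with AggE mouse 5 and Ctrl mice 1 to 3. Ctrl mouse 3 had the lowest mean correlations across 4539 probes, at 0.926 with the AggE arrays and 0.928 with the other Ctrl arrays. AggE mouse 2 with the Ctrl arrays (0.934) and Ctrl mouse 2 with the other Ctrl arrays (0.936) were not far above. Results that rest on Ctrl mouse 3 are therefore given with and without it. Nothing in the labels beyond "biological replicate" describes the origin of the replicates, and with 4 or 5 arrays a group only large differences can be measured precisely.

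With the background correction and normalization used here, few liver transcripts separated AggE from Ctrl at 1.5 wks post-5-day stressor. Of 17452 genes tested, 8 passed a 2-fold difference with an unadjusted p of 0.05 or less (0.0458%), and all 8 were higher in AggE. The study reported a far larger count at these limits, with higher and lower genes about equal in number. The count of 8 depended on the processing. It was 526 at a normexp offset of 0, 675 on the processed signals and 3 with no normalization between arrays. On the deposited log10 ratios and the series table, whose normalization also differs, it was 802 and 564. No gene passed an adjusted p of 0.05 (limma's moderated test with Benjamini-Hochberg adjustment), against 595 genes at an unadjusted p of 0.05 or less, 304 of them higher and 292 lower, with a gene read in both directions by different probes counted on each side. The count at an adjusted p of 0.05 was 13 at an offset of 0, 10 on the processed signals, 5 on the deposited log10 ratios, 5 on the series table and 38 on the Cy-5 channel alone. The 595 became 2404 at an offset of 0, 352 with slide as a random block, 415 (232 higher and 185 lower) without Ctrl mouse 3, and 2630 on Cy-5 alone, where 1085 were higher and 1589 lower. With 1 probe for each gene, 234 genes were higher (1.34%) and 202 lower (1.16%) at that level, and the median log2 fold change over all genes was -0.0038. Among the genes above background in a group, 2.37% were higher and 2.26% lower at that level. In both sets, higher and lower genes together made up less than the 0.05 that chance alone gives at that limit. Every gene named below had an adjusted p of 0.9999 in this comparison. Below, p without the word adjusted is limma's unadjusted p, which serves to order and select genes. Because slides were nearly confounded with groups, each gene was also fitted with slide as a fixed block. AggE mice 1, 3 and 4 lay on a slide with no Ctrl array. In that fit they add nothing to the difference, which rests on AggE mice 2 and 5. In that fit p stayed at 0.05 or less for Slc39a4, Gstm2, Mtif2, Crlf2, Actr5, Prpf38b and Pea15a, and was above it for the other genes described below as having p at 0.05 or less with all 9 mice.

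The zinc transporter Slc39a4 (ZIP4), which imports zinc into cells, was higher in AggE under every setting tried. Its log2 ratio was 1.44, 1.99, 1.78, 1.87 and 1.71 in AggE mice 1 to 5 and 0.87, 1.15, 0.43 and 1.46 in Ctrl mice 1 to 4. The groups overlapped by 1 mouse, Ctrl mouse 4, which lay just above the lowest AggE mouse. The AggE mean was 1.72-fold that of Ctrl (log2 0.78, SE 0.23). The difference kept p at 0.05 or less in all 30 alternatives tried, with values of 0.56 to 0.94, and was 0.60 without Ctrl mouse 3. On the slide that held both groups it was 0.89. Of the other zinc genes, Mt1 and Mt2, the main metallothioneins, were at -0.19 and -0.32. Single mice set both values, which ran from -0.62 to 0.04 and from -1.07 to 0.22 when each mouse was left out, with the lowest without Ctrl mouse 4 and the highest without Ctrl mouse 2. They were -0.90 and -1.47 with slide as a fixed block, and Mt2 was at -1.35 on scan day 1 and 3.06 on scan day 2, which held 1 mouse of each group. Mt3 was at -0.61 (SE 0.30), and the exporter Slc30a1 and the importer Slc39a14 were both at 0.02.

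Retsat, retinol saturase, which converts retinol to dihydroretinol, was 1.39, 1.48, 1.45, 2.16 and 1.57 in AggE and 1.00, 1.30, 0.19 and 0.97 in Ctrl. No Ctrl mouse reached the lowest AggE mouse, although Ctrl mouse 2 was close to it. It was higher by 0.74 on the log2 scale (SE 0.22), and by 0.52 without Ctrl mouse 3, with p at 0.05 or less in 26 of 30 alternatives. With slide as a fixed block it was 0.40 and had p above 0.05.

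Gstm2, a glutathione S-transferase of the mu class that conjugates electrophiles to glutathione, was lower in AggE under every setting tried. It was 1.06, 0.56, 1.11, 0.79 and 0.83 in AggE and 1.99, 1.36, 2.00 and 1.12 in Ctrl. The groups did not overlap, but Ctrl mouse 4 and AggE mouse 3 were all but level. Its log2 fold change was -0.75 (SE 0.26), and p was 0.05 or less in all 30 alternatives, with values of -1.01 to -0.62. The value was -0.62 without Ctrl mouse 3 and -0.96 on the slide with both groups. Other members of the family had values close to 0, with Gstm1 at 0.12, Gstm3 at 0.20 and Gstm4 at -0.10, and since mu-class sequences resemble each other, a probe may not read a single member.

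**Figure D1:**
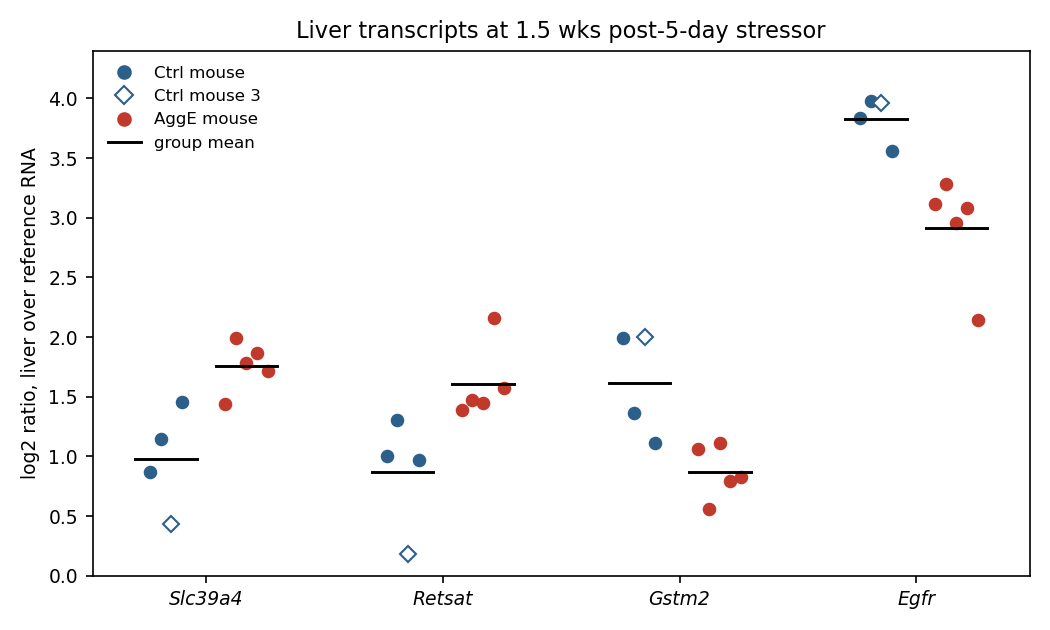
Log2 ratio of liver over reference RNA (y axis) for Slc39a4, Retsat, Gstm2 and Egfr in each of 4 Ctrl mice (blue) and 5 AggE mice (red) at 1.5 wks post-5-day stressor, with black bars for group means and an open diamond for Ctrl mouse 3. Retsat, Gstm2 and Egfr were chosen because their groups do not overlap, which for Egfr holds on the brightest of 4 probes. For Slc39a4, 1 Ctrl mouse reaches the AggE range.

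Egfr, the epidermal growth factor receptor, was read by 4 probes that disagreed. The brightest gave 3.12, 3.28, 2.96, 3.09 and 2.14 in AggE and 3.84, 3.98, 3.96 and 3.56 in Ctrl. On that probe every AggE mouse lay below every Ctrl mouse, with a log2 fold change of -0.91 (SE 0.30), and of -0.72 without AggE mouse 5, with p at 0.05 or less in 29 of 30 alternatives. The other 3 probes were at 0.17, -0.16 and -0.07, so the difference was seen on 1 of 4 probes.

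Among 4767 genes above background with a value on every array, 11 had AggE values wholly above the Ctrl range (0.231%) and 19 wholly below it (0.399%). Of the 126 ways to divide 9 mice into 5 and 4, 1 puts AggE wholly above Ctrl and 1 wholly below. Both shares were below 1 in 126, so the lack of overlap does not set these genes apart from chance. The higher genes with the smallest p after Retsat were Tmem223 (log2 0.32, SE 0.10), a mitochondrial membrane protein, and Cdh13 (0.27, SE 0.08), T-cadherin, a receptor for adiponectin. In the fit with slide as a fixed block they were at 0.19 and 0.23, both with p above 0.05, and Cdh13 was at 0.18 without AggE mouse 1. Mtif2, a mitochondrial translation initiation factor, was at 0.32, Wdfy3, an autophagy adaptor, at 0.35, and the tetraspanin Cd151 at 0.24. Without Ctrl mouse 3 these were 0.21, 0.33 and 0.23, each with p above 0.05, and Wdfy3 was at 0.19 with slide as a fixed block. Cox7b, a subunit of cytochrome c oxidase, was at 0.46, the ribosomal protein Rpl39 at 0.40, Zap70, a kinase of T cell receptor signalling, at 0.17, and Xrcc5, a DNA end-joining protein, at 0.11. Cox7b, Rpl39, Zap70 and Xrcc5 did not overlap between groups, but had p above 0.05 in limma's test, which takes its spread from all 8 groups of the series.

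Of the genes wholly below the Ctrl range, Nat9, an acetyltransferase, had the smallest p (log2 -0.59, SE 0.18). It was 0.29, 0.40, -0.13, 0.31 and 0.56 in AggE and 0.65, 0.64, 1.17 and 1.05 in Ctrl, so that AggE mouse 5 came within 0.1 of the lowest Ctrl mouse. It was at -0.49 with p above 0.05 when slide was a fixed block. The translation regulator Mcts1 was at -0.42, the mitochondrial carrier homolog Mtch1 at -0.44, the cytokine receptor subunit Crlf2 at -0.36 and the chromatin remodelling subunit Actr5 at -0.32. Mcts1 rested on Ctrl mouse 4, without which it was at -0.23, and it was at -0.27 on scan day 1 and at -0.10 with slide as a fixed block, each with p above 0.05. Mtch1, at -0.46, also had p above 0.05 in that fit. Crlf2 was at -0.27 with p above 0.05 without Ctrl mouse 3. The splicing factors Prpf38b (-0.33) and Snrnp35 (-0.17, with p at 0.05 or less in 17 of 30 alternatives) and the death effector protein Pea15a (-0.23) had smaller values. For Prpf38b p was 0.05 or less in 29 of 30 alternatives. Second probes, all dimmer, gave -0.10 for Mtch1, -0.15 for Prpf38b, 0.00 for Pea15a, 0.06 for Mtif2 and -0.05 for Wdfy3.

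Of the 8 genes past 2-fold, 7 are described here, Cyp4a14, Ces1c, Mat1a, Hsd11b1, Cyp4a31, Foxa2 and Phlda1. Cyp4a14, a fatty acid omega-hydroxylase and a target of PPARα, had the largest value. It was 5.26, 5.89, 4.67, 5.83 and 3.34 in AggE and 2.44, 3.49, 0.30 and 5.84 in Ctrl. The Ctrl mice spanned more than 5 log2 units, and the highest of them matched the highest AggE mice. The AggE mean was 3.94-fold higher (log2 1.98, SE 0.77), and without Ctrl mouse 3 the log2 fold change was 1.07 and p was above 0.05. With slide as a fixed block it was 0.36.

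Cyp4a31, a related omega-hydroxylase, was 4.23, 5.30, 5.53, 5.71 and 5.23 in AggE and 4.88, 4.29, 2.5 and 4.80 in Ctrl. Apart from AggE mouse 1, the AggE mice were all above the Ctrl mice, and Ctrl mouse 3 was the lowest by far. Its log2 fold change was 1.08 (SE 0.38), and 0.55 with p above 0.05 without that mouse, and a second Cyp4a31 probe was at -0.01. The Cyp4a genes are near-identical copies, so that values for single members are uncertain. Cyp4a10, the third omega-hydroxylase measured, was at 0.31 (SE 0.37) and at -0.01 on a second probe. Of 20 targets of PPARα measured, 15 were higher in AggE with a median of 0.05, and Cyp4a14 alone had p at 0.05 or less. Ehhadh, an enzyme of peroxisomal beta-oxidation, was at 0.30, Cpt1a, which admits fatty acids to mitochondria, at 0.11, and Angptl4, an inhibitor of lipoprotein lipase, at -0.60.

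Mat1a, which makes S-adenosylmethionine in the liver, was 3.68, 4.35, 4.33, 5.03 and 3.59 in AggE and 3.55, 4.26, 1.28 and 2.96 in Ctrl. Every AggE mouse was above 3 of the 4 Ctrl mice, and the size of the difference came largely from Ctrl mouse 3. The AggE mean was higher by 1.18 on the log2 scale (SE 0.36), and by 0.61 with p just above 0.05 without that mouse. It was at 0.46 with slide as a fixed block.

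Hsd11b1, which regenerates active glucocorticoid from its inert 11-keto form, was 3.71, 4.13, 4.31, 4.45 and 2.95 in AggE and 2.22, 4.08, 1.38 and 3.43 in Ctrl. Ctrl mice 2 and 4 lay within the AggE range and Ctrl mice 1 and 3 below it. The difference was 1.13 on the log2 scale (SE 0.36), and 0.67 with p above 0.05 without Ctrl mouse 3. With slide as a fixed block Hsd11b1 was at 0.28 and Ces1c at 0.31. Ces1c, a carboxylesterase secreted into plasma, was 4.92, 5.82, 5.52, 5.68 and 4.55 in AggE and 3.37, 5.18, 3.14 and 4.73 in Ctrl on the probe that passed (log2 1.19, SE 0.38, and 0.87 without Ctrl mouse 3). The brighter Ces1c probe was at 0.14 (SE 0.24).

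Foxa2, a transcription factor of hepatocytes, was 1.42, 4.25, 4.2, 2.35 and 2.64 in AggE and 0.74, 3.42, 0.90 and 2.53 in Ctrl (log2 1.07, SE 0.53, and 0.74 with p above 0.05 without Ctrl mouse 3, or 0.69 without Ctrl mouse 1). The spread within each group was larger than the difference between their means. Phlda1, a pleckstrin homology protein, was -0.29, 1.30, 1.84, -0.40 and 0.73 in AggE and 0.13, -0.21, -0.55 and -1.05 in Ctrl (log2 1.05, SE 0.51, and 0.75 without AggE mouse 3). Without Ctrl mouse 3 it was 1.01, with p above 0.05.

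**Figure D2:**
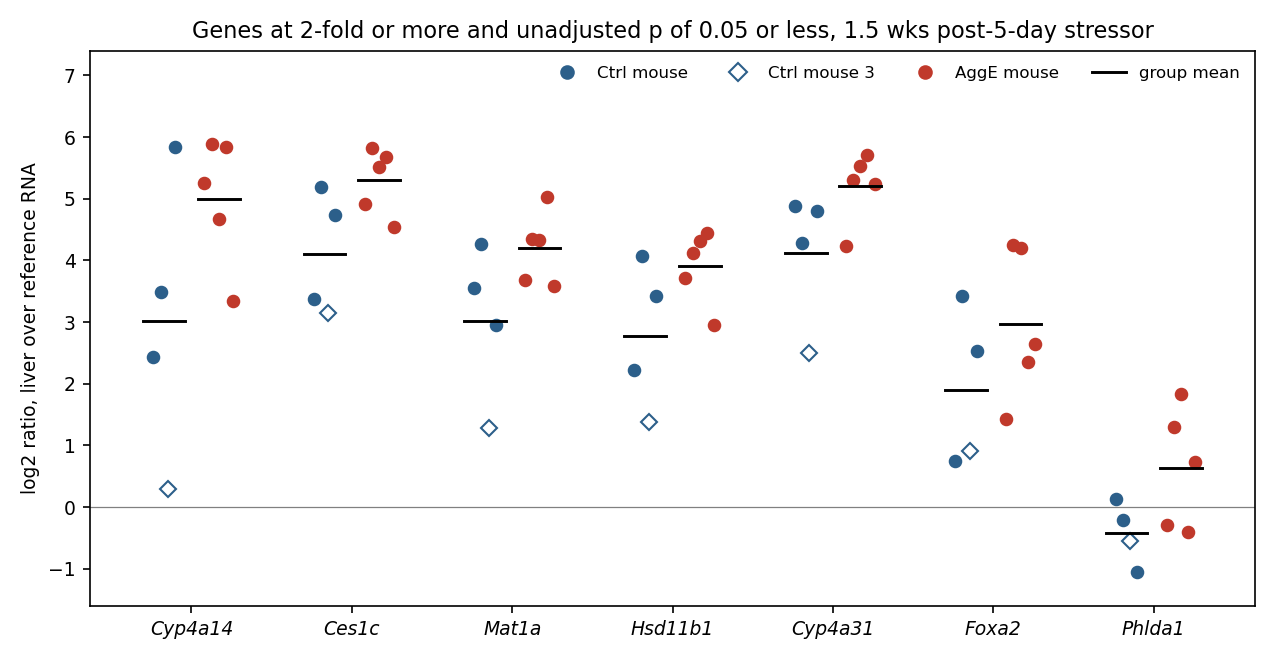
Log2 ratio of liver over reference RNA (y axis) for 7 genes past 2-fold in each of 4 Ctrl mice (blue) and 5 AggE mice (red), with black bars for group means and an open diamond for Ctrl mouse 3. Ctrl mouse 3 is the lowest of the 9 mice for Cyp4a14, Ces1c, Mat1a, Hsd11b1 and Cyp4a31, and the groups overlap for all 7 genes.

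Ctrl mouse 3 was the lowest of the 9 mice for 6 of these 8 genes, a number that the choice of genes higher in AggE by itself raises for Ctrl mice. Among all genes above background, AggE mouse 2 was the lowest for 20.6% and Ctrl mouse 3 for 19.2%. With Ctrl mouse 3 left out, 3 genes passed the same limits and none of them was among the 8. They were Arl4d, a small GTPase, at -1.33, Nudt7, a peroxisomal coenzyme A hydrolase, at 1.19, and Saa2, a serum amyloid A, at -1.4. With slide as a fixed block 7 genes passed, again with none of the 8. Akr1c19 (-1.08), Angptl8 (-1.32), Cyp7b1 (-1.26), Gstm2 (-1.01) and Saa2 (-1.92) were lower in AggE, and Kat2a (1.14) and Nudt7 (1.58) were higher. These were chosen after their values were seen. Leaving out other mice raised the count, to 57 genes without Ctrl mouse 2, 48 without Ctrl mouse 4, 35 without AggE mouse 5 and 29 without AggE mouse 1, and it was 5 to 9 without AggE mice 2, 3 or 4 or Ctrl mouse 1.

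Enzymes of amino acid breakdown and the urea cycle leaned to the higher side in AggE. Of 18 measured, 16 were higher and 2 lower, 5 had p at 0.05 or less, all of them higher, and the median log2 fold change was 0.61. Over all genes tested 48.2% were higher and 1.34% were higher with p at 0.05 or less. Besides Mat1a, they included Hpd (0.88, SE 0.42), the dioxygenase that follows tyrosine transamination, and Gls2 (0.48, SE 0.18), the liver glutaminase. Hpd was 4.98, 6.57, 5.95, 5.83 and 5.02 in AggE and 4.93, 5.08, 4.08 and 5.06 in Ctrl, with 3 AggE mice above all Ctrl mice. Without Ctrl mouse 3, Hpd was at 0.65 and Gls2 at 0.36, both with p above 0.05, and with slide as a fixed block they were at 0.13 and 0.04.

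Of the urea cycle, Otc was at 0.69, Ass1 at 0.67, Asl at 0.22 and Nags, which makes the activator of the first step, at 0.21. Of histidine, glycine, serine and lysine breakdown, Hal was at 0.79, Gnmt at 0.72, Sds at 0.62 and Aass at 0.60, all with p above 0.05. Cth was at 0.35, Cdo1 at 0.27 and Csad, which makes the taurine precursor hypotaurine, at 0.17. The 2 lower enzymes were glutamine synthetase, Glul, at -0.19 and the betaine methyltransferase Bhmt at -0.14. As a median over the 18 enzymes, the log2 ratio was 3.45, 4.54, 4.29, 4.94 and 3.73 in AggE mice 1 to 5 and 3.59, 4.37, 2.03 and 3.91 in Ctrl mice 1 to 4. The groups overlapped except for Ctrl mouse 3, which lay far below all others.

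**Figure D3:**
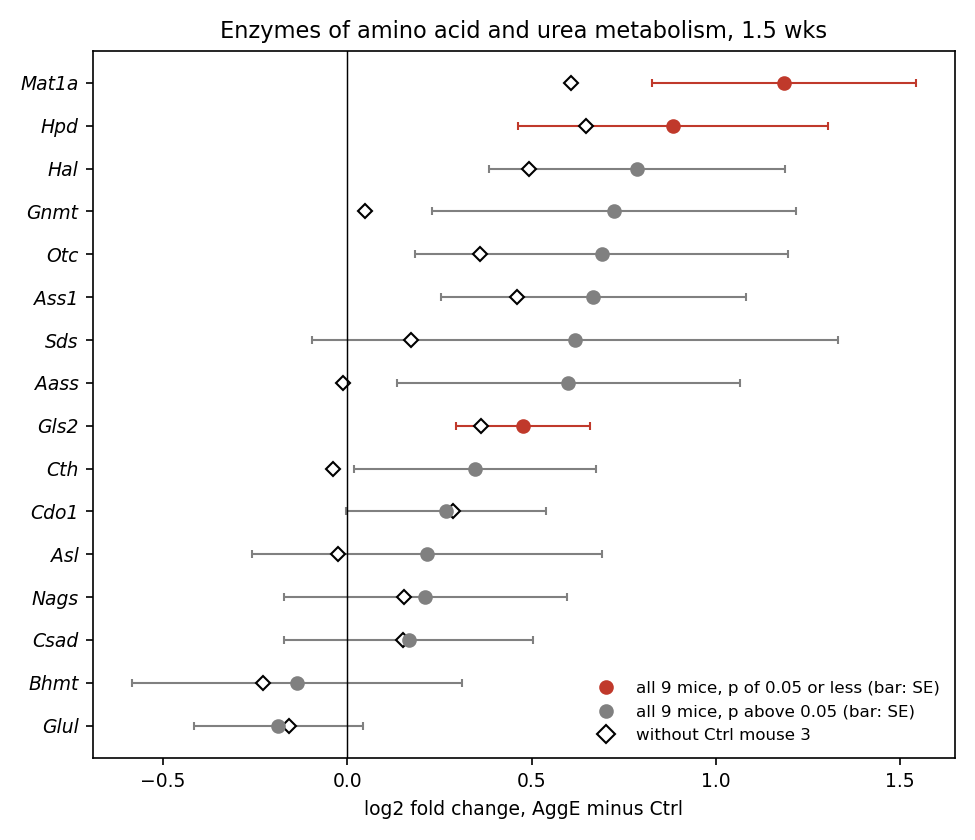
Log2 fold change of AggE over Ctrl (x axis) for 16 of the 18 enzymes of amino acid and urea metabolism, with circles and SE bars for all 9 mice (red where p was 0.05 or less) and open diamonds for the same value without Ctrl mouse 3. Leaving that mouse out moves most values toward 0, from 0.72 to 0.05 for Gnmt and from 0.60 to -0.01 for Aass.

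For 11 of the 18 enzymes Ctrl mouse 3 was the lowest of all mice, against 19.2% of all genes above background. Without it the median over the list was 0.23, with 13 enzymes higher and none at p of 0.05 or less. With slide as a fixed block the median was 0.05 with 11 higher, and on the slide that held both groups AggE mouse 5 was above the mean of Ctrl mice 1 to 3 for 12 of the 18.

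Of 14 genes of glucose production and insulin response, 8 were higher with a median of 0.01, and 1 had p at 0.05 or less. Fbp1, a gluconeogenic enzyme, was at 0.87 (SE 0.47), the glucose transporter Slc2a2 at 0.42, G6pc, which releases glucose, at -0.12 (-0.40 without Ctrl mouse 3) and the glucagon receptor Gcgr at -0.50. Pck1 had no probe in the tested set.

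Hsd11b1 was the one gene at p of 0.05 or less among 13 glucocorticoid targets and enzymes, of which 7 were higher with a median of 0.08. The sensitive target Fkbp5 was 0.94, 2.35, 1.31, 0.31 and 0.09 in AggE and 0.41, 1.03, 0.64 and 0.27 in Ctrl (log2 0.41, SE 0.30). Tsc22d3 (GILZ) was at -0.04, the tyrosine aminotransferase Tat at 0.16, Igfbp1 at -0.68 and the receptor Nr3c1 at -0.04. For Fkbp5 the AggE mice covered the whole Ctrl range and more, and single mice set its value, which was 0.07 without AggE mouse 2 and 0.64, with p at 0.05 or less, without AggE mouse 5. The other Fkbp5 probes were at -0.01 and 0.03, so that the difference was seen on 1 of 3 probes. Tsc22d3 was at -0.37 without Ctrl mouse 3.

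Of 13 genes of fatty acid synthesis, 9 were higher with a median of 0.10 and none at p of 0.05 or less. Their regulator Srebf1 was 1.46, 0.11, 1.4, 1.97 and 0.26 in AggE and -0.11, 0.69, 0.30 and 0.82 in Ctrl (log2 0.62, SE 0.34), and 3 AggE mice were above all Ctrl mice while 2 were within their range. Its value was 0.38 without AggE mouse 4, 0.81 without AggE mouse 5 and 0.98 on scan day 1, the latter pair with p at 0.05 or less, as in 6 of 30 alternatives, and it was -0.32 with slide as a fixed block. Fasn, fatty acid synthase, was 2.48, 0.45, 1.58, 2.59 and 2.20 in AggE and 0.91, 1.60, 1.56 and 1.54 in Ctrl (log2 0.46, SE 0.42), and its second probe was at 0.03. Cholesterol synthesis had 12 of 17 genes higher and a median of 0.05, with the squalene epoxidase Sqle at 0.14. Lipid droplet genes had 10 of 14 higher and a median of 0.01.

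Of 22 bile acid genes measured, 16 were higher with a median of 0.11, and none had p at 0.05 or less. Cyp7a1, the rate-limiting enzyme of bile acid synthesis, was 0.19, 1.38, 1.17, 1.62 and 0.60 in AggE and 0.41, 1.61, 0.31 and 1.17 in Ctrl (log2 0.12, SE 0.37, and -0.07 without Ctrl mouse 3). The sterol 12-hydroxylase Cyp8b1 was at -0.25, the uptake transporter Slc10a1 at 0.08 and the bile salt export pump Abcb11 at 0.22. The sign of each of the latter depended on 1 mouse, with Slc10a1 at -0.14 without AggE mouse 2 and Abcb11 at -0.24 without Ctrl mouse 1. The conjugating enzymes Slc27a5 and Baat, which link bile acids to taurine or glycine, were at 0.59 and 0.56. For the enzymes that conjugate products of gut bacteria, 9 of 13 were higher with a median of 0.17, Glyat, which joins benzoate to glycine, being at 0.36 (SE 0.33). The level of this list was highest in AggE mouse 2, the array with the largest share of probes above background.

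Of 24 acute phase genes, 13 were higher and 11 lower, none had p at 0.05 or less with all 9 mice, and the median was 0.01. Serum amyloid A genes are among the strongest markers of this response. Saa1 was 0.95, 1.24, 1.27, 4.29 and 1.26 in AggE and 1.84, 3.13, 1.32 and 1.28 in Ctrl. A single mouse of each group, AggE mouse 4 and Ctrl mouse 2, was high, and the means differed by less than that spread (log2 -0.09, SE 0.44). Without AggE mouse 4 the value was -0.72 with p at 0.05 or less, and without Ctrl mouse 2 it was 0.32 with p above 0.05. Saa2, at -0.81 (SE 0.60) with all 9 mice, was at -1.4 without Ctrl mouse 3 and at -1.92 with slide as a fixed block, both with p at 0.05 or less. Saa3 was at -0.09, the iron-binding protein Lcn2 at -0.08, Orm2 at -0.00 and Serpina3n at 0.10, with Lcn2 above background in 1 of the 9 mice. Of 25 targets of LPS and NF-κB, 7 were higher with a median of -0.03, and of 20 complement and coagulation genes 13 were higher with a median of 0.15, none of either at p of 0.05 or less. Only 5 of the 25 targets were well above background on every array of a group, so their median does not show an absence of change.

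Of 24 interferon and antigen presentation genes, 10 were higher with a median of -0.03, but only 7 were well above background on every array of a group. B2m, the light chain of MHC class I, was -0.19, -1.24, -0.52, -0.08 and -0.42 in AggE and -0.47, -0.61, -1.24 and -1.13 in Ctrl (log2 0.37, SE 0.18). The lowest AggE mouse was level with the lowest Ctrl mouse. The difference was 0.25 with p above 0.05 without Ctrl mouse 3 and 0.56 without AggE mouse 2, and p was 0.05 or less in 3 of the 9 fits that left out a mouse. A second B2m probe was at 0.25 with p above 0.05. The class I heavy chains H2-K1 and H2-D1 were at 0.05 and -0.08.

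Serpina1d, an antitrypsin released into plasma, was at 6.67, 7.08, 5.95, 6.31 and 7.17 in AggE and 7.51, 6.29, 8.45 and 7.26 in Ctrl (log2 -0.74, SE 0.34). Ctrl mouse 2 lay within the AggE range and Ctrl mouse 3 was the highest. The value was -0.38 without Ctrl mouse 3 and -0.16 with slide as a fixed block, both with p above 0.05, and p was 0.05 or less in 11 of 30 alternatives. Serpina1 copies are near identical and the value of this member is uncertain. Of 19 hepatocyte markers, 12 were higher with a median of 0.13, Foxa2 higher and Serpina1d lower at p of 0.05 or less. Alb was at -0.47 and Hnf4a, a master regulator of hepatocytes, at 0.40. Single mice moved both, Alb to between -0.70 and -0.22, the latter without Ctrl mouse 1, and Hnf4a to -0.0078 without AggE mouse 2 and 0.65 without AggE mouse 5. The other Hnf4a probes were at -0.02 and -0.11.

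Of 24 genes of stellate cells and matrix, 19 were lower with a median of -0.08, and Col1a2 alone had p at 0.05 or less. Col1a2, a chain of type I collagen, was -2.97, -3.40, -3.64, -3.33 and -2.03 in AggE and -1.90, -3.60, -1.71 and -2.14 in Ctrl (log2 -0.73, SE 0.30). AggE mice 1 to 4 were low, and Ctrl mouse 2 was as low as they were. Without Ctrl mouse 3 the value was -0.53 and with slide as a fixed block -0.01, both with p above 0.05, and p was 0.05 or less in 14 of 30 alternatives. Without Ctrl mouse 2 it was -1.16. The partner chain Col1a1 was at -0.29 (SE 0.24) on its brightest probe and at -0.11 and -0.01 on 2 others. The first value ran from -0.50 without Ctrl mouse 4 to -0.05 without AggE mouse 2, and was -0.10 without Ctrl mouse 3. Of 20 cell cycle genes, 14 were lower with a median of -0.09, and Mcm6, a subunit of the replicative helicase, was at -0.54 (SE 0.24). Mcm6 was -2.19, -2.34, -2.77, -2.47 and -1.85 in AggE and -1.77, -2.66, -1.20 and -1.51 in Ctrl, with Ctrl mouse 2 again among the AggE values. Its value was -0.83 without that mouse, -0.35 without Ctrl mouse 3 and -0.22 with slide as a fixed block, the last 2 with p above 0.05.

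Of 22 ribosomal protein genes, 18 were lower with a median of -0.12, which ran from -0.24 to 0.06 when each mouse was left out. Of 19 genes of the endoplasmic reticulum stress response 16 were lower with a median of -0.07, and none of either list had p at 0.05 or less. Hspa5 (BiP), the main chaperone of that compartment, was -1.05, -1.31, -1.09, -0.96 and -0.82 in AggE and -0.98, -1.67, 0.03 and -0.38 in Ctrl. Its Ctrl values spread around the AggE values (log2 -0.30, SE 0.34), and Ctrl mouse 3 was the highest. Without that mouse the value was -0.04. Heat shock genes had 4 of 13 higher and a median of -0.03.

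**Figure D4:**
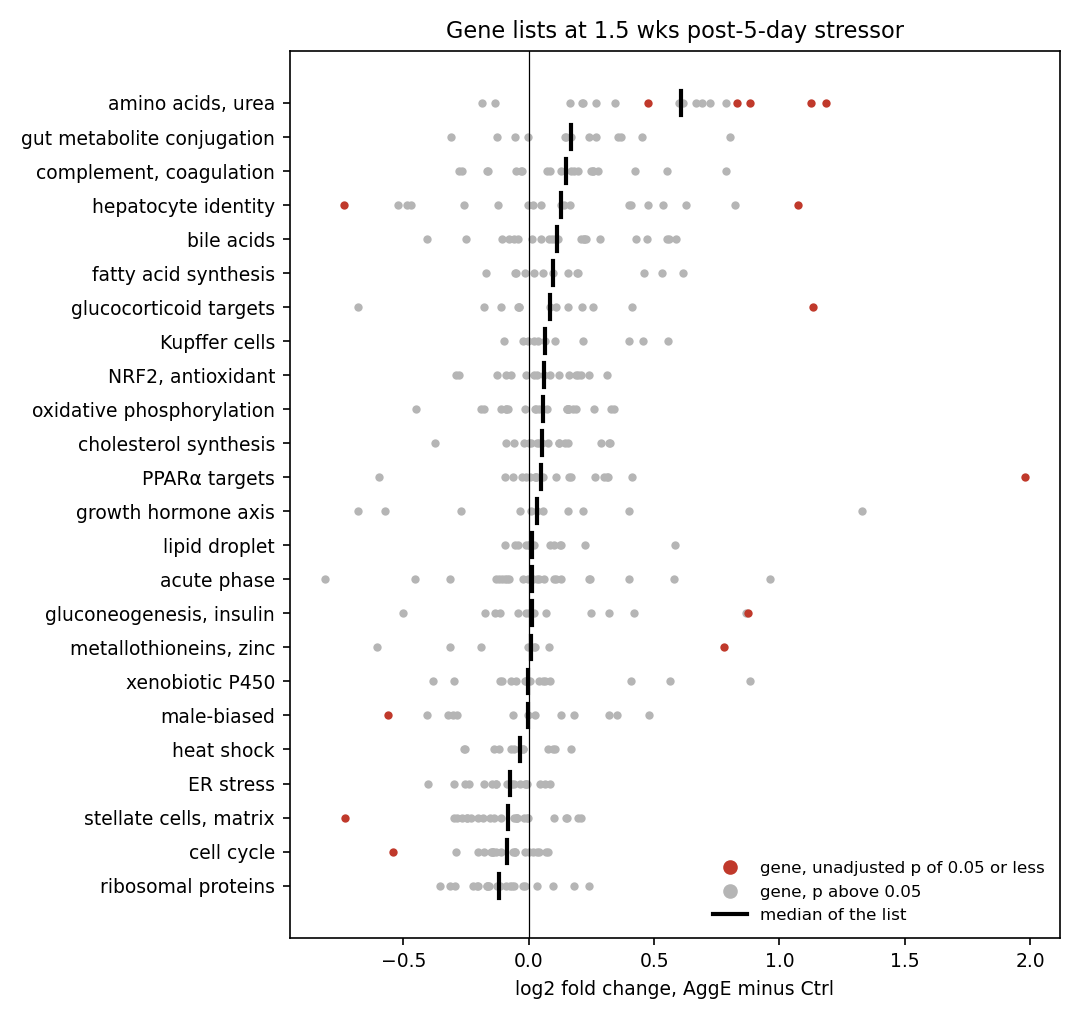
Log2 fold change of AggE over Ctrl at 1.5 wks (x axis) for the genes of 24 lists, those in which at least 50% of the measured genes were above background, with red points for p of 0.05 or less and black bars for list medians. The amino acid and urea enzymes have the highest median, at 0.61, and the other lists lie between -0.12 and 0.17.

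The remaining liver programs stayed near the level of all genes. Respiratory chain genes had 15 of 23 higher and a median of 0.06, NRF2 and antioxidant genes 11 of 17 and 0.06, xenobiotic cytochromes P450 and their receptors 8 of 17 and -0.00, the growth hormone axis 7 of 11 and 0.03, and the 8 metallothionein and zinc genes 4 and 0.01, none of them with a call other than Slc39a4. Of genes higher in male liver 6 of 13 were higher, with a median of -0.00. Selenbp2, a selenium-binding protein among them, was 6.53, 6.13, 6.70, 6.57 and 7.07 in AggE and 7.59, 6.94, 7.53 and 6.57 in Ctrl (log2 -0.56, SE 0.22, and -0.44 with p above 0.05 without Ctrl mouse 3). Ctrl mice 2 and 4 fell within the AggE range. Of genes higher in female liver 8 of 13 were higher, with a median of 0.12, but only 4 were well above background on every array of a group. A1bg, at 0.12 (SE 0.06) and at 0.03 without Ctrl mouse 2, was not well above background on any array.

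Clock genes carry the time of day at which a liver was taken. Those in phase with Arntl (Bmal1) had 4 of 6 higher and a median of 0.01, those in phase with Dbp 4 of 12 and -0.05. Only 2 of the 6 and 3 of the 12 were well above background on every array of a group. Dbp itself was 0.73, -0.17, -0.41, -0.98 and -0.26 in AggE and 0.30, 0.05, 0.23 and -0.63 in Ctrl, and Arntl, not above background on any array, was at -0.13. The groups overlapped for Dbp. Of 14 immediate early genes 5 were higher, with a median of -0.03, and 6 were well above background on every array of a group.

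Markers of other cells were compared as lists. The median level over the Kupffer cell list was 0.06 to 0.55 in AggE and 0.13 to 0.33 in Ctrl, with 8 of 11 genes higher and Clec4f and Cd5l, which define these macrophages, above background in all mice. Over the endothelial list it was 0.19 to 0.77 in AggE and 0.13 to 0.50 in Ctrl, with 7 of 9 genes higher. Neutrophil (-0.08 to 0.03 and -0.06 to 0.02) and lymphocyte markers (-0.11 to -0.01 and -0.06 to 0.04) were near 0 in both, but 0 of 9 neutrophil genes and 1 of 10 lymphocyte genes were well above background on every array of a group, so that these ratios give no comparison of the cells. The neutrophil gene S100a8 was not above background in any mouse. Of 9 neutrophil genes 4 were higher, and of 10 lymphocyte genes 3. Bile duct markers were at -0.42 to -0.00 in AggE and -0.24 to -0.16 in Ctrl with 4 of 7 higher, pancreas markers at -0.07 to 0.06 and -0.02 to 0.06 with 3 of 9 higher, adipose markers at -0.04 to 0.39 and -0.05 to 0.14 with 4 of 6 higher, and erythroid markers at 0.09 to 0.20 and 0.03 to 0.12 with 4 of 5 higher. On every array of a group 1 of 7 bile duct, 1 of 9 pancreas, 2 of 6 adipose and 2 of 5 erythroid genes were well above background. No gene of these 8 lists had p at 0.05 or less.

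Skeletal muscle transcripts were present in some mice of both groups. The muscle list reached 2.43 in AggE mouse 2 and 0.56 in AggE mouse 5, and 0.71 in Ctrl mouse 1 and 0.43 in Ctrl mouse 4, against a lowest value of -0.17 in AggE and -0.19 in Ctrl, with 6 of 7 genes higher and none at p of 0.05 or less. The troponin Tnnc2 was at 4.35 and 3.37 in AggE mice 2 and 5 and at 3.28 and 3.07 in Ctrl mice 1 and 4. AggE mouse 5 and Ctrl mouse 1 are among the 4 arrays of the slide that held both groups. The fast myosin Myh4 was at 4.01 in AggE mouse 2 and the alpha-actin Acta1 at 2.34 in Ctrl mouse 1. The part of this tissue in the results above was not tested.

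The comparison with 24 hrs post-5-day stressor asked whether the change in AggE differed between the times. At 24 hrs, 5 AggE and 4 Ctrl mice of the same strain and regimen were measured, and 570 genes passed an adjusted p of 0.05 (3.27%, 1 probe for each gene). The change at 24 hrs differed from the change at 1.5 wks for 17 genes at an adjusted p of 0.05 with 1 probe for each gene (0.0974%) and for 19 when any probe of a gene was counted (0.109%). Taking slide as a random block left 1 gene. At 24 hrs the Ctrl arrays filled 1 slide and no AggE array was on it, so that slide and group cannot be told apart there.

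Of the 19 genes, 7 had the same sign at both times, 6 were lower in AggE at 24 hrs and higher at 1.5 wks, and 6 were higher first and lower later. Of those named here, 3 acute phase genes and the metallothionein Mt1 had positive differences. In the fit with slide as a random block Saa3 stayed below an adjusted p of 0.05 (adjusted p = 0.0137), whereas Lcn2, Saa1 and Mt1 were at adjusted p = 0.0946, 0.265 and 0.437, and Cyp4a14, Cyp4a31, Retsat and Cdh13, described below, at 0.802, 0.635, 0.635 and 0.437. Lcn2 was 1.94 to 4.75 in AggE at 24 hrs against -0.38 to -0.22 in Ctrl, and at 1.5 wks -0.26 to -0.12 against -0.28 to 0.10. It was well above background in all 5 AggE and none of the 4 Ctrl mice at 24 hrs, where AggE was at least 6.27-fold higher than the background limit of the Ctrl arrays, and in 1 of the 9 mice at 1.5 wks. Its change at 24 hrs was larger than that at 1.5 wks (adjusted p = 0.000107), but with these levels at background the size of the difference has no exact value, and it ranged from 2.5 to 7.23 on the log2 scale over 36 alternatives. The groups did not overlap at 24 hrs, and at 1.5 wks every AggE mouse was within the Ctrl range. Saa3 went from 4.23 to -0.09 (difference 4.31, adjusted p = 7.26e-05) and Saa1 from 3.75 to -0.09 (difference 3.84, adjusted p = 0.00288).

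Mt1 showed another course, because its Ctrl level was not the same at both times. It was -3.53, -3.68, -4.15 and -4.06 in Ctrl at 24 hrs, and -0.54, -0.49, -1.19 and -2.47 in Ctrl at 1.5 wks. The AggE mean was -0.11 at 24 hrs and -1.36 at 1.5 wks. The log2 fold change went from 3.74 to -0.19 (difference 3.93, SE 0.73, adjusted p = 0.0154), and the Ctrl mean at 1.5 wks (-1.17) was higher than at 24 hrs (-3.85) by more than the AggE means differed. Slides and time points were not crossed for Ctrl, so that this shift of Ctrl and a difference between slides cannot be told apart.

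Cyp4a14 was the gene with the widest turn. At 24 hrs it was 5.71, 5.40, 2.48, 2.14 and 4.29 in AggE and 7.52, 7.34, 6.79 and 7.18 in Ctrl, with every AggE mouse below every Ctrl mouse. Its log2 fold change was -3.20 at 24 hrs and 1.98 at 1.5 wks (difference -5.18, SE 1.09, adjusted p = 0.0472). The Ctrl mean went from 7.21 to 3.02 while the AggE mean was 4.00 and then 5.00. Without Ctrl mouse 3 the difference was -4.28 (adjusted p = 0.181). Cyp4a31 was at -1.67 and 1.08 (difference -2.76, adjusted p = 0.0232, and -2.22 with adjusted p = 0.0698 without Ctrl mouse 3), and its Ctrl mean went from 6.07 to 4.12.

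Retsat was lower in AggE at 24 hrs and higher at 1.5 wks. At 24 hrs it was 2.39, 2.78, 2.66, 2.09 and 2.34 in AggE and 3.48, 3.32, 3.68 and 2.64 in Ctrl, so that 3 AggE mice were below all Ctrl mice. The log2 fold change went from -0.83 to 0.74 (difference -1.57, SE 0.31, adjusted p = 0.0297), and the difference was -1.34 without Ctrl mouse 3 (adjusted p = 0.134). Cdh13 went from -0.31 to 0.27 (difference -0.58, adjusted p = 0.0364, and 0.159 without Ctrl mouse 3). For Slc39a4, at -0.06 and 0.78, and Gstm2, at -0.28 and -0.75, the differences had adjusted p values of 0.523 and 0.824. The amino acid and urea enzymes had a median of 0.08 at 24 hrs, and none of the 18 differed between times at an adjusted p of 0.05.

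**Figure D5:**
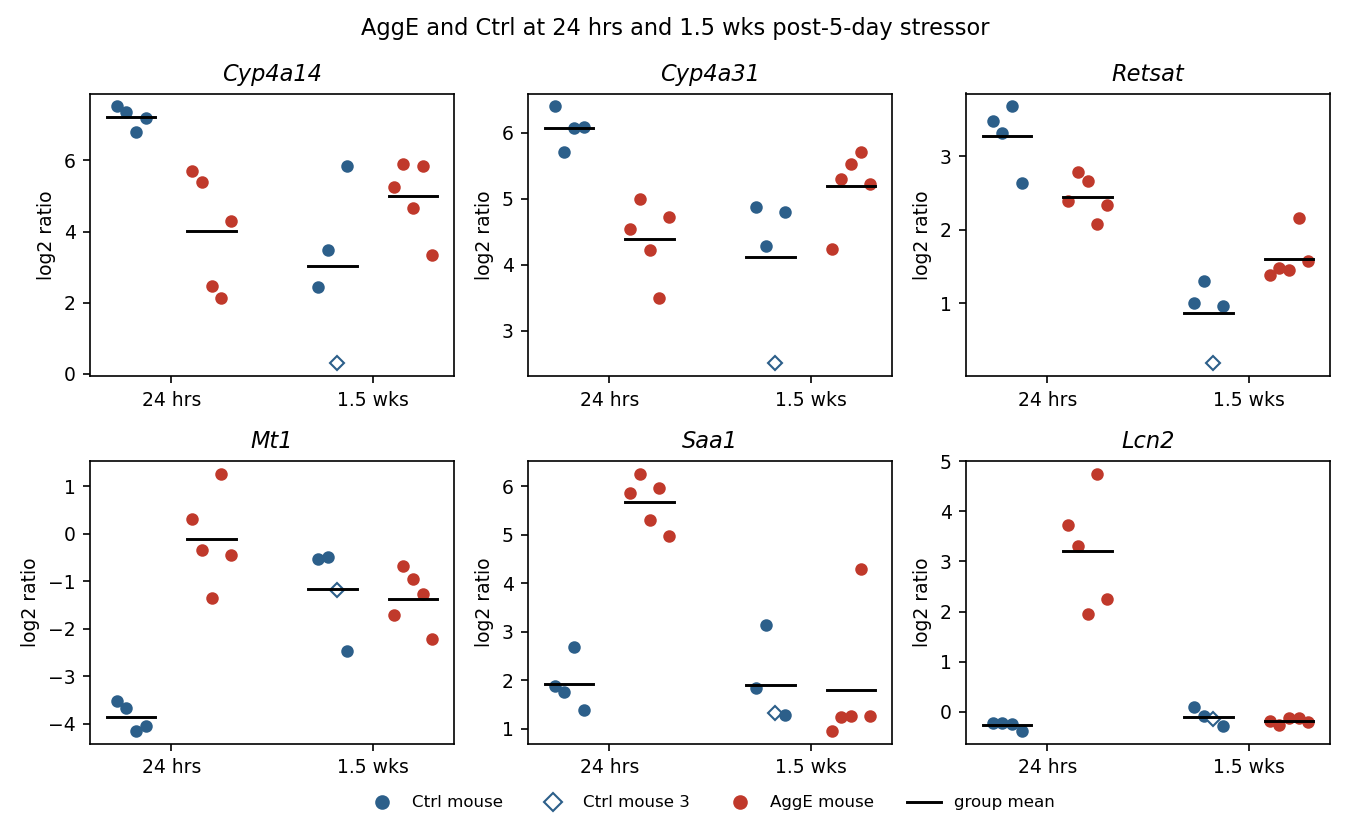
Log2 ratio of liver over reference RNA (y axes, each with its own scale) for 6 genes in single Ctrl (blue) and AggE (red) mice at both rest times after the 5-day regimen, 24 hrs and 1.5 wks, with black bars for group means and an open diamond for Ctrl mouse 3 at 1.5 wks. Cyp4a14, Cyp4a31 and Retsat are lower in AggE at 24 hrs and higher at 1.5 wks, with the Ctrl means falling between the times, whereas Saa1 and Lcn2 are high only in AggE at 24 hrs, apart from AggE mouse 4 and Ctrl mouse 2 for Saa1.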

How the data were processed

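Per the labels, RNA of each mouse (Cy-5) and a reference RNA (Cy-3) were hybridised to 44k Agilent Whole Mouse Genome arrays and read with Agilent Feature Extraction 11.5.1.1. The authors deposited the scanner output, with signal intensity in both channels and a log10 ratio of Cy-5 over Cy-3 for each spot. Log10 ratios of the whole series were also deposited.

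From the deposited median spot and background intensity, the background was corrected with normexp (offset 50), each array was normalised by loess and all 39 arrays by quantiles (limma 3.58.1, R 4.3.3, statmod 1.5.0). The order of these steps and the moderated test follow the study's methods, which do not name the kind of background correction, and normexp, its offset and the median signals were chosen here. Control spots had weight 0 and outlier spots were left out, after which the spots of a probe were averaged. The 24939 probes with a RefSeq transcript were tested (24372 named, and 567 without a symbol that the study's filter would drop), which covered 17452 genes. A gene was read by its brightest probe unless said otherwise. A model with the 8 groups of the series and limma's moderated test gave p values, which were adjusted by Benjamini and Hochberg over all probes.

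Genes were named if they passed 2-fold with p of 0.05 or less, if they were among the 10 higher and 10 lower genes of smallest p without overlap between groups, if they belonged to any of 38 gene lists and had p of 0.05 or less, or if they belonged to a set of 30 liver genes chosen for their function. Pck1 and Hspa1b of that set had no probe. Other members of lists are given as examples. A few genes that met these rules entered every fit and count but are not reported here. The comparison, members and lists were chosen with earlier results of these data known, and the p values are not independent of that choice. Of 579 genes in the lists, 24 had no probe.

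On simulated data with 24939 probes and the same groups at 1.5 wks, 91 of 100 probes changed by 1.5 log2 and 70 of 100 changed by 0.75 were recovered at an adjusted p of 0.05, with 10 false calls. The changed probes were drawn from those well above background on all arrays, and the noise was independent between arrays. In the data the correlation within slides was 0.322 and most probes were at background. The recovery therefore checks the code and does not give the power of the comparison. The share of probes above background was compared by an exact permutation test. Figures were drawn with Python 3.11.15 and matplotlib 3.10.9. Alternatives covered background correction, normalisation, deposited ratios, probe filters, blocks for slide, scan day and replicate number, array weights and the omission of each mouse. Slide as a fixed block could not be fitted for the difference between times and was not run. Arrays of the 10-day regimen entered normalisation and the estimate of spread but are not described. Where a probe was not well above background on any array of 1 group, the other group is given as at least N-fold, from Cy-5 means after loess and Aquantile against, on each array, the higher of the probe's own level and the lowest level among probes well above background, and without dye swaps to balance a dye bias.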

Additional observations from a re-analysis of the deposited data

Results flagged for a closer look

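Values of 1 mouse that stood apart from the others of its group were searched in 174 groups of values of 4 or 5 mice, and 14 were found. Chance alone puts about 1 in 20 groups past the limit used. In AggE these were Cdh13 in mouse 1 at 0.34 (others -0.18 to -0.05), Egfr in mouse 5 at 2.14 (others 2.96 to 3.28), Retsat in mouse 4 at 2.16 (others 1.39 to 1.57), Saa1 in mouse 4 at 4.29 (others 0.95 to 1.27) and Zap70 in mouse 3 at 0.39 (others 0.24 to 0.26). In Ctrl they were A1bg in mouse 2 at -0.34 (others -0.02 to 0.04), Cdh13 in mouse 3 at -0.46 (others -0.26 to -0.23), Fasn in mouse 1 at 0.91 (others 1.54 to 1.60), Hpd in mouse 3 at 4.08 (others 4.93 to 5.08), Mcts1 in mouse 4 at 1.36 (others 0.57 to 0.66) and Mtif2 in mouse 3 at 0.0328 (others 0.43 to 0.52). Of the list levels, that of the enzymes conjugating products of gut bacteria was 2.41 in AggE mouse 2 (others 0.62 to 1.1) and that of cholesterol synthesis 0.98 in Ctrl mouse 4 (others 0.03 to 0.08). AggE mouse 2 also had 58.1% of probes above background (others 20.2% to 29.9%).

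The log2 fold change at 24 hrs minus that at 1.5 wks differed from 0 at an adjusted p of 0.05 for 8 of the named genes: -0.58 for Cdh13, -5.18 for Cyp4a14, -2.76 for Cyp4a31, 3.55 for Lcn2, 3.93 for Mt1, -1.57 for Retsat, 3.84 for Saa1 and 4.31 for Saa3. When each of the 18 mice was left out in turn, Lcn2, Saa1 and Saa3 stayed at an adjusted p of 0.05 or less in all 18, Mt1 in 17, Cyp4a31 in 12, Retsat in 11, Cdh13 in 7 and Cyp4a14 in 4. With slide as a random block Saa3 alone of the 8 did. The value for Lcn2 is not exact, since it was above background in none of the 4 Ctrl mice at 24 hrs and in 1 of the 9 mice at 1.5 wks, and it was 2.5 to 7.23 over 36 alternatives.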

How the results depend on the processing

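The count of 8 genes past 2-fold at 1.5 wks depended on the processing. It was 34 with no background correction, 675 on the processed signals, 526 and 15 with normexp offsets of 0 and 16, 802 and 564 on the deposited log10 ratios and the series table, 3 with no normalization between arrays or with Aquantile, 3 on Cy-5 alone, 2 with quantiles over the 9 arrays only, 1 with only the groups compared in the fit, 25 with array weights, 2 with slide as a random block, 15 with scan day as a block, 21 on scan day 1 and 14 without Ctrl mouse 3 and the scan day 2 arrays (chosen after seeing the data), and 3 to 57 when each mouse was left out. The count at an adjusted p of 0.05 was 0 when each mouse was left out, 10 on the processed signals, 13 with an offset of 0, 38 on Cy-5 alone and 5 on both sets of deposited ratios.

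For the difference between times, 66 genes past 2-fold became 206, 1492, 1631, 150, 1218 and 1345 in the order of the first 6 settings above, 113 with no normalization between arrays or Aquantile, 41 on Cy-5 alone, 27 with slide as a random block and 44 to 123 when each mouse was left out. The 19 genes at an adjusted p became 3 with no normalization between arrays or Aquantile, 31 on Cy-5 alone, 4 and 9 on the deposited ratios and the series table, 11 with only the groups compared, 70 with array weights, 1 with slide as a random block and 10 to 24 when each mouse was left out. With the replicate number as a block the counts were 38 and 143. The numbers were not taken to pair mice, since the deviations of same-numbered AggE and Ctrl arrays from their group means had correlations of 0.577, 0.345, -0.23 and 0.226. The mean share of probes above background differed by -6.55 to 5.39 percentage points when each mouse was left out.

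Of 1851 recomputed fold changes of named genes, 5 changed sign with a call on either side. On the processed signals A1bg was -0.0142 and Hpd -0.0266, with A1bg at -0.0226 at an offset of 0. On the deposited ratios and the series table Slc10a1 was -1.09. The difference between times for Cyp4a31 was 0.70 on the processed signals. The median of Kupffer markers became 0.23, 0.25, 0.23 and 0.31 on the processed signals, at an offset of 0, on the series table and on probes above background, that of complement and coagulation -0.31, -0.38 and -0.36 at an offset of 0, on the deposited ratios and on the series table, and that of metallothionein and zinc genes 0.22, 0.31 and -0.25 on the deposited ratios, the series table and probes above background. The causes were not tested. The series table holds an exact 0 for 13.7% to 37.7% of spots and its medians were -0.0587 to 0, with its centring not given. Most genes tested were not well above background, so that a difference in them was not detectable here.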
